A study of Mus musculus with 9 samples.

Results

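The genes described here encode the Golgi enzymes that build, branch and cap sugar chains: the sialyltransferases (St3gal, St6gal, St6galnac and St8sia), the Galnt enzymes, the galactosyl-, N-acetylglucosaminyl- and fucosyltransferases (B3galt, B4galt, B3gnt, Mgat, Gcnt and Fut), and the sulfotransferases of proteoglycans and other glycans (Hs3st, Hs6st and Chst). Membership was decided by symbol alone, and takes in every gene whose symbol begins with one of these family names and that has at least 1 entry in any library. Of 111 annotated genes with such a symbol, 78 had an entry, among 17172 genes with a value in the series. The files name 75 of the 78, and St6galnac4, Galnt14 and Fut11 were found by position only.

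The 9 RNA libraries came from the epididymis of C57BL/6 mice at 4 weeks of age, from its initial segment, which is the most proximal part of the duct. Wild-type mice (WT) were set beside mice that lack both Mst1 and Mst2 (dKO) and mice that lack Yap in addition (tKO), with 3 libraries in each of the 3 groups. Mst1 (Stk4) and Mst2 (Stk3) are the core kinases of the Hippo pathway, and Yap (Yap1) is the transcriptional coactivator that they inhibit, so the tKO group carries the deletions of the dKO group as well. The labels do not say in which cells or by which Cre driver the genes were deleted, nor whether the libraries came from separate or pooled animals, and p-values thus reflect only how these libraries vary, which may be technical.

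Mucin-type O-glycans begin when a Galnt enzyme links N-acetylgalactosamine to serine or threonine. Galactose makes this the core 1 structure, a Gcnt enzyme can branch it into core 2, and sialyltransferases such as St3gal1 and St3gal2 cap it with sialic acid. N-glycans are attached whole in the endoplasmic reticulum and are then branched by Mgat enzymes, extended by B4galt and B3gnt enzymes, and fucosylated on their core by Fut8. The epididymal epithelium secretes and anchors heavily glycosylated proteins that coat maturing sperm, and sialic acid is a main terminal sugar of that coat.

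Values are FPKM, fragments scaled to transcript length and to the mapped fragments of the library, which allow levels to be set side by side between genes because they are per length. The files list FPKM for transcript events, and the value of a gene is the sum over its first exons or, where larger in total over the 9 libraries, over its last exons, which was so for 22 of the 78. First-exon FPKM totalled 231670 to 253235 per library. No read counts are given, so the sequencing depth cannot be stated and no counting error could be given. As a check of the genotypes, Yap1 measured 23.2, 25.2 and 26.9 FPKM in the WT libraries, 26.4, 25.2 and 27.9 in dKO and 8.86, 8.68 and 8.33 in tKO. Stk4 stood at 8.57 ± 1.24 FPKM (SD, n = 3) in dKO against 9.83 ± 0.817 in WT, and Stk3 at 7.45 ± 0.848 against 7.85 ± 0.928. Neither passed the test, and a sum over the ends of a gene does not check the loss of an inner exon.

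The test took every gene that reached 1 FPKM in 3 or more libraries, 12075 genes of which 47 are among the 78 glycosylation genes. All fold changes below are log2 differences of FPKM + 1 from limma, with their standard error, and all adjusted p are Benjamini-Hochberg values over the 12075 genes. The threshold for a call was an adjusted p of 0.05. The 31 genes below the filter had a mean of at most 0.805 FPKM, and their highest single value was 3.27 FPKM. They include St8sia2, Galnt6, Fut9, Mgat4a, Hs6st2, both B3galt genes found (B3galt1 and B3galt2) and 7 of the 10 Chst genes. The only events listed under Fut4 lie on the strand opposite to the gene, and its value is not described further.

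In dKO, 8 of the 47 genes fell relative to WT and none rose. They were 3 sialyltransferases (St3gal2, St3gal1 and St8sia6), 2 Gcnt enzymes of core 2 branching (Gcnt4 and Gcnt1), Galnt10, B4galt4 and Fut8. The share called lower was 17.0%, where 2.37% of all tested genes were called lower. Of the same 47 genes, 0 were called higher, against 1.47% of all genes, although 7 (14.9%, against 9.86% of all genes) had an unadjusted p under 0.05 in that direction. In the lower direction 14 did (29.8%, against 8.65%). In tKO relative to dKO 6 genes rose and none fell, namely St3gal2, Gcnt4, St3gal1, St8sia6, Fut8 and Hs3st3a1. That is 12.8% called higher, against 1.23% of all tested genes, and 0 called lower, against 0.861%, where 2.09% of all genes were called in either direction. At an unadjusted p under 0.05, 15 were higher (31.9%, against 9.42% of all genes) and 5 lower (10.6%, against 7.30%) in tKO than in dKO. Both comparisons rest on the same 3 dKO libraries, so low values there enter both. In tKO relative to WT none of the 47 passed the test, against 0.0745% called higher and 0.0663% called lower of all genes. Without the adjustment, 5 genes were higher and 5 lower in tKO than in WT at p under 0.05, which is 10.6% each against 8.17% and 5.06% of all genes. The median fold change of the 47 was -0.07 in dKO versus WT, 0.02 in tKO versus WT and 0.17 in tKO versus dKO, and that of all tested genes was 0.03, 0.04 and 0.02.

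**Figure D1:**
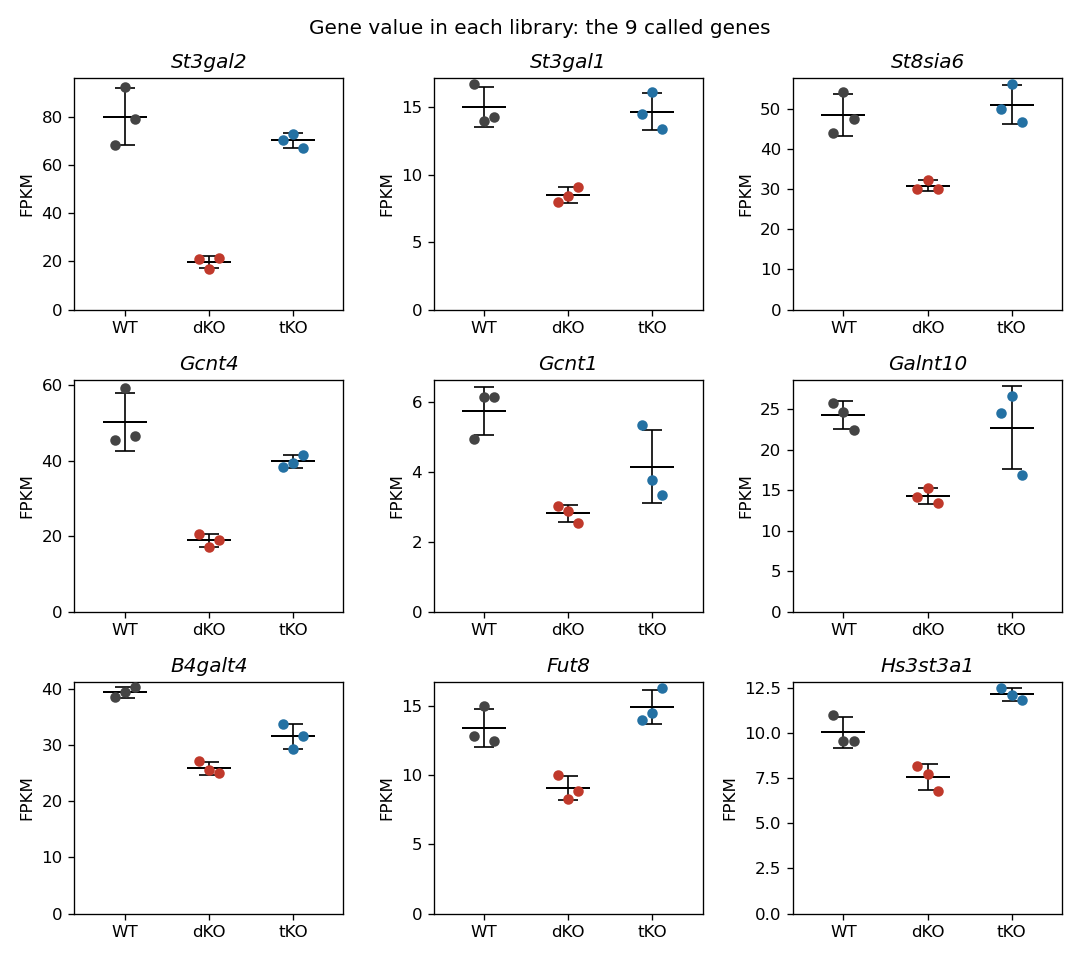
FPKM (linear axis from 0) of the 9 genes called in at least 1 comparison, with a point per library, the group mean as a bar and the SD (n = 3) as whiskers. In dKO, St3gal2 lies at 16.9 to 21.2 FPKM, below 66.9 FPKM, the lowest value of the other 6 libraries, and in every panel the 3 dKO points lie below all other points.

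St3gal2 was both the highest sialyltransferase in WT and, of the 47 genes, that with the largest fall. The enzyme adds sialic acid to the galactose of core 1 O-glycans and of gangliosides. Its gene (ENSMUSG00000031749) spans bases 110919922 to 110972480 of chromosome 8 on the plus strand in GRCm38. It measured 68.4, 92.1 and 79.2 FPKM in WT, 20.8, 16.9 and 21.2 in dKO, and 70.5, 73.0 and 66.9 in tKO. The dKO libraries lay far below the 6 others, and tKO 2 and tKO 1 lay inside the WT range with tKO 3 just under it. The dKO mean was 0.246 of the WT mean (log2 fold change -1.97 ± 0.13 SE, adjusted p = 0.00039), and the tKO mean was 3.57 times the dKO mean (1.79 ± 0.13, adjusted p = 0.00065). Between tKO and WT the fold change was -0.18 ± 0.13 with an adjusted p of 0.61. As these are bulk samples of a whole tissue, fewer cells that express a gene and less RNA per cell cannot be told apart.

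The value of St3gal2 comes from its single last exon, and the first exons gave another picture in 2 libraries. The sum of its first-exon events was 70.8, 104 and 4.23 FPKM in WT, 18.9, 14.7 and 1.37 in dKO and 54.1, 78.1 and 50.3 in tKO. WT 3 and dKO 3 are thus far below their own last exon, at 79.2 and 21.2 FPKM, and from first exons alone neither difference was called (dKO versus WT -1.92, adjusted p = 0.43; tKO versus dKO 2.75, adjusted p = 0.28). The first annotated exon, at bases 110919922 to 110920105, held 50.8% to 78.1% of the first-exon sum in WT against 85.6% to 94.9% in dKO and 61.0% to 93.7% in tKO. A start at bases 110954048 to 110954317, placed by the gene name in the files, was at 17.9 and 19.5 FPKM in WT 1 and WT 2, at 1.70 and 1.68 in dKO 1 and dKO 2, and was not listed in the 5 other libraries. In tKO 2 the second start, at bases 110931693 to 110932005, reached 27.4 FPKM, where no other library exceeded 1.62. The share of the main first exon was 23.2 percentage points higher in dKO than in WT, and the exact two-sided permutation test gave p = 0.1, the smallest it can give with 3 against 3 libraries, among 7 genes with alternative first exons compared in this way.

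**Figure D2:**
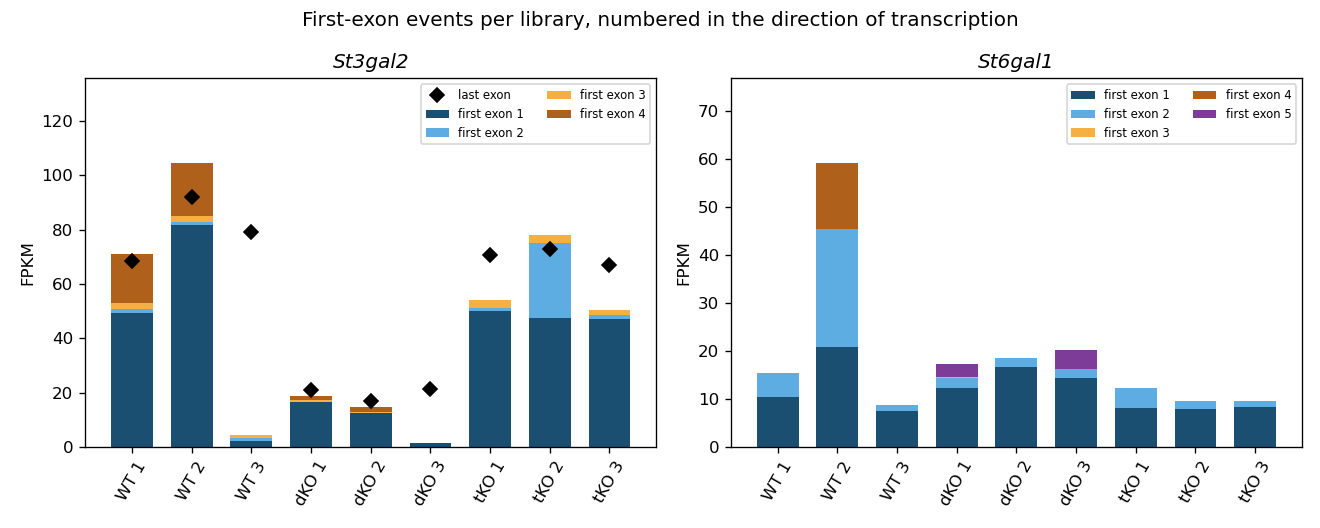
FPKM of the first-exon events of St3gal2 (left) and St6gal1 (right) in each of the 9 libraries as stacked bars, with the last exon of St3gal2 as diamonds. The St3gal2 bars of WT 3 (4.23) and dKO 3 (1.37) lie far below their diamonds (79.2 and 21.2), and the tall St6gal1 bar of WT 2 holds a start drawn in no other library.

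St3gal1, which also sialylates core 1 O-glycans, is on chromosome 15 (ENSMUSG00000013846, bases 67102875 to 67176830, minus strand). It measured 16.7, 14.0 and 14.3 FPKM in WT, 7.95, 8.44 and 9.08 in dKO and 14.5, 16.1 and 13.4 in tKO. The dKO libraries did not overlap with either group, and WT and tKO overlapped. The fall in dKO was -0.75 ± 0.11 (adjusted p = 0.011) and the rise in tKO over dKO 0.72 ± 0.11 (adjusted p = 0.016). The rise lost its call without dKO 1, dKO 2 or tKO 2, with an adjusted p of up to 0.059, and with a replicate block (0.055). First exons alone ended both calls (-1.41, adjusted p = 0.43; 1.08, adjusted p = 0.58). That sum was 14.2 FPKM in WT 3 and at most 2.27 in the 8 others, so it caught little of the transcript in most libraries.

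The 4 other St3gal genes did not pass the test in any comparison. St3gal4, which caps N-acetyllactosamine ends, measured 4.99, 4.68 and 3.86 FPKM in WT, 6.61, 6.03 and 6.72 in dKO and 4.71, 6.70 and 8.02 in tKO. Its dKO libraries lay above all WT libraries, at a fold change of 0.44 ± 0.17 (adjusted p = 0.21). St3gal6, with a like substrate, measured 1.87, 1.78 and 1.26 FPKM in WT, 1.56, 1.62 and 1.59 in dKO and 4.05, 2.35 and 2.35 in tKO. The 3 tKO libraries were the highest, and the fold change over WT was 0.55 ± 0.19 (adjusted p = 0.30). St3gal3 varied from 3.40 to 10.8 FPKM within tKO alone, and St3gal5, the synthase of the ganglioside GM3, stayed between 1.29 and 1.98 FPKM in all libraries. Summed over the 6 St3gal genes, the level was 111 ± 11.3 FPKM (SD, n = 3) in WT against 45.5 ± 3.19 in dKO and 104 ± 7.42 in tKO. St3gal2 made up 68.5% to 75.3% of that sum in WT against 40.3% to 44.9% in dKO and 65.8% to 69.6% in tKO. Without St3gal2 the sums were 31.1 ± 0.685, 25.9 ± 0.850 and 33.6 ± 4.35 FPKM.

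St8sia6 links a further sialic acid to sialylated O-glycans and glycolipids. It is on chromosome 2 (ENSMUSG00000003418, bases 13651021 to 13794064, minus strand) and was the second highest sialyltransferase by the mean over all libraries. It measured 44.0, 54.3 and 47.5 FPKM in WT, 30.1, 32.4 and 30.0 in dKO and 50.1, 56.3 and 46.8 in tKO. All dKO libraries lay below the other 6, and WT and tKO shared a range. The fold change was -0.64 ± 0.11 in dKO versus WT (adjusted p = 0.019) and 0.71 ± 0.11 in tKO versus dKO (adjusted p = 0.016). The fall was no longer called without WT 2, WT 3, dKO 1, dKO 2 or dKO 3, each left out alone (adjusted p up to 0.077). The rise was no longer called without dKO 1, dKO 3 or tKO 2 (up to 0.062), nor from first exons alone (0.63, adjusted p = 0.077). St8sia4, a polysialyltransferase, measured 0.628, 1.27 and 1.09 FPKM in WT, 1.1, 0.854 and 0 in dKO and 0.878, 0.833 and 1.08 in tKO, with overlap among all groups.

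Of the 3 tested St6galnac genes, whose enzymes act on N-acetylgalactosamine, St6galnac2 and St6galnac4 spread widely among the WT libraries. St6galnac2 measured 26.8, 63.9 and 48.2 FPKM in WT, 25.8, 23.5 and 25.3 in dKO and 40.1, 21.3 and 39.1 in tKO. St6galnac4 measured 10.1, 19.5 and 17.3 FPKM in WT, 9.55, 6.41 and 6.36 in dKO and 8.56, 17.0 and 16.6 in tKO. In both genes all dKO libraries were below all WT libraries, with St6galnac2 in all 3 and St6galnac4 in dKO 1 only narrowly below WT 1. Their fold changes in dKO, -0.79 ± 0.32 (adjusted p = 0.23) and -0.95 ± 0.31 (adjusted p = 0.14), were not called. St6galnac6 measured 4.19, 3.40 and 4.61 FPKM in WT and 4.74, 2.83 and 3.96 in dKO (-0.08 ± 0.19, adjusted p = 0.88).

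St6gal1 sialylates the galactose of N-glycans. It measured 15.5, 59.2 and 8.86 FPKM in WT, 17.3, 18.7 and 20.2 in dKO and 12.3, 9.62 and 9.62 in tKO. WT 2 stood apart from every other library, and the tKO libraries lay below all dKO libraries (-0.78 ± 0.53, adjusted p = 0.51). In a fit of the dKO and tKO libraries alone, which leaves the WT spread out, the same difference had an adjusted p of 0.047. In WT 2 the 2 first exons used in every library stood at 20.9 and 24.5 FPKM, and a start at bases 23307772 to 23307808 of chromosome 16 added 13.7 FPKM and was listed there only. Of the 12 tested sialyltransferases, 3 fell (25%, against 2.37% of all tested genes) and 0 rose (against 1.47%) in dKO versus WT. At an unadjusted p under 0.05, 5 were lower and 1 higher, against 8.65% and 9.86% of all genes. Their median fold change was -0.22. In tKO versus dKO 3 rose (25%, against 1.23%) and 0 fell (against 0.861%), with a median of 0.32. Without the adjustment, 5 were higher and 0 lower there, against 9.42% and 7.30%.

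The core 2 branching enzymes Gcnt4 and Gcnt1 fell in dKO, and a further one, Gcnt3, had no entry here and could not be analysed. Gcnt4 is on chromosome 13 (ENSMUSG00000091387, bases 96924689 to 96950906, plus strand). It measured 45.4, 59.2 and 46.5 FPKM in WT, 20.6, 17.2 and 18.9 in dKO and 38.4, 39.4 and 41.6 in tKO. The 3 groups did not overlap, with tKO between the others. The dKO mean was 0.375 of the WT mean (-1.36 ± 0.12, adjusted p = 0.00083), and the tKO mean was 2.11 times the dKO mean (1.04 ± 0.12, adjusted p = 0.0056). Between tKO and WT the fold change was -0.32 ± 0.12, which was not called (adjusted p = 0.32).

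Gcnt1, the best known core 2 enzyme, is on chromosome 19 (ENSMUSG00000038843, bases 17326141 to 17372844, minus strand). It measured 4.94, 6.12 and 6.13 FPKM in WT, 3.02, 2.86 and 2.54 in dKO and 5.33, 3.76 and 3.34 in tKO. Its dKO libraries were the lowest 3 of the 9, and tKO spread between dKO and WT. The fall was -0.82 ± 0.16 (adjusted p = 0.031), and it was not called when WT 2, WT 3 or any of the dKO libraries was left out (adjusted p up to 0.12), with no filter on low values (0.052) or with a replicate block (0.080). In tKO versus dKO the fold change was 0.42 ± 0.16 (adjusted p = 0.24).

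Gcnt2 makes the branches of poly-N-acetyllactosamine that carry the I blood group antigen. It measured 10.9, 10.8 and 11.9 FPKM in WT, 7.52, 8.05 and 8.26 in dKO and 10.9, 10.2 and 8.69 in tKO. Its dKO libraries were again below all others, at -0.45 ± 0.11, with an adjusted p of 0.057 that misses the threshold. With a filter of 5 FPKM, or without tKO 3, the fall was called (-0.45, adjusted p = 0.042 in each). The gene has alternative first exons that give different proteins, and the one at bases 40917634 to 40918801 of chromosome 13 held 81.5% ± 4.30 (SD, n = 3) of the first-exon sum in WT against 77.2% ± 5.87 in dKO and 77.5% ± 1.61 in tKO. The 3 Gcnt genes together summed to 67.3 ± 7.83 FPKM in WT against 29.6 ± 1.49 in dKO and 53.9 ± 0.619 in tKO.

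The Galnt enzymes that start O-glycans moved in both directions. The sum of the 15 with an entry hardly differed between the groups, at 126 ± 7.03 FPKM in WT against 130 ± 1.57 in dKO and 126 ± 6.87 in tKO. Galnt2, Galnt4, Galnt5 and Galnt16 had no entry here and are not in that sum. Of 9 tested Galnt genes, 1 fell in dKO (11.1%, against 2.37% of all tested genes) and 0 rose (against 1.47%). At an unadjusted p under 0.05, 3 were higher and 2 lower, against 9.86% and 8.65% of all genes. Of the fold changes, 6 were above and 3 below 0. Galnt10 is on chromosome 11 (ENSMUSG00000020520, bases 57645442 to 57787514, plus strand) and measured 25.8, 24.7 and 22.4 FPKM in WT, 14.2, 15.3 and 13.4 in dKO and 24.5, 26.7 and 16.9 in tKO. All dKO libraries lay below the rest, and tKO 3 lay apart from the 2 other tKO libraries. The fall was -0.73 ± 0.16 (adjusted p = 0.040). It was not called when any WT or dKO library or tKO 1 was left out (adjusted p up to 0.14), with no filter on low values (0.061) or from last exons alone (0.052). The tKO mean was 1.59 times the dKO mean (0.61 ± 0.16, adjusted p = 0.091), and without tKO 3 this difference was called (0.80, adjusted p = 0.018).

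Galnt12 was the highest Galnt gene by the mean over all libraries. It measured 26.9, 21.8 and 21.3 FPKM in WT, 30.1, 34.2 and 25.9 in dKO and 21.7, 17.2 and 16.7 in tKO. The tKO libraries lay below all dKO libraries, at -0.67 ± 0.15 with an adjusted p of 0.059, and without tKO 1 the difference was called (-0.78, adjusted p = 0.040). Galnt14 measured 9.24, 14.5 and 13.7 FPKM in WT, 7.72, 6.39 and 9.25 in dKO and 8.47, 6.79 and 7.04 in tKO. Both knockout groups had lower means than WT, with dKO 3 and WT 1 at nearly the same value, and neither comparison with WT was called (-0.61 ± 0.19, adjusted p = 0.12, and -0.66 ± 0.19, adjusted p = 0.21). Without WT 1 the dKO difference was called (-0.79, adjusted p = 0.046).

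Galnt3, an O-glycosylation enzyme known for protecting the hormone FGF23 from cleavage, measured 10.5, 9.01 and 8.71 FPKM in WT, 12.3, 12.9 and 13.6 in dKO and 10.1, 14.7 and 11.7 in tKO. Its dKO libraries lay above all WT libraries, with a fold change of 0.42 ± 0.14 (adjusted p = 0.14). Galnt15 measured 0.826, 0.544 and 1.05 FPKM in WT, 1.35, 0.670 and 1.02 in dKO and 1.69, 1.48 and 2.69 in tKO. Its tKO libraries were the 3 highest, at 0.70 ± 0.22 over WT (adjusted p = 0.26). Galnt11 varied little, at 15.9 to 20 FPKM over the 9 libraries, as did Galnt1 by its last exon, at 17.3 to 22 FPKM, although its first-exon sums ran from 4.59 to 20.9 FPKM. Galnt18 had the largest positive fold change of the 47 in dKO, 0.51 ± 0.14 (adjusted p = 0.091), at means of 12.5 FPKM in WT and 18.2 in dKO.

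**Figure D3:**
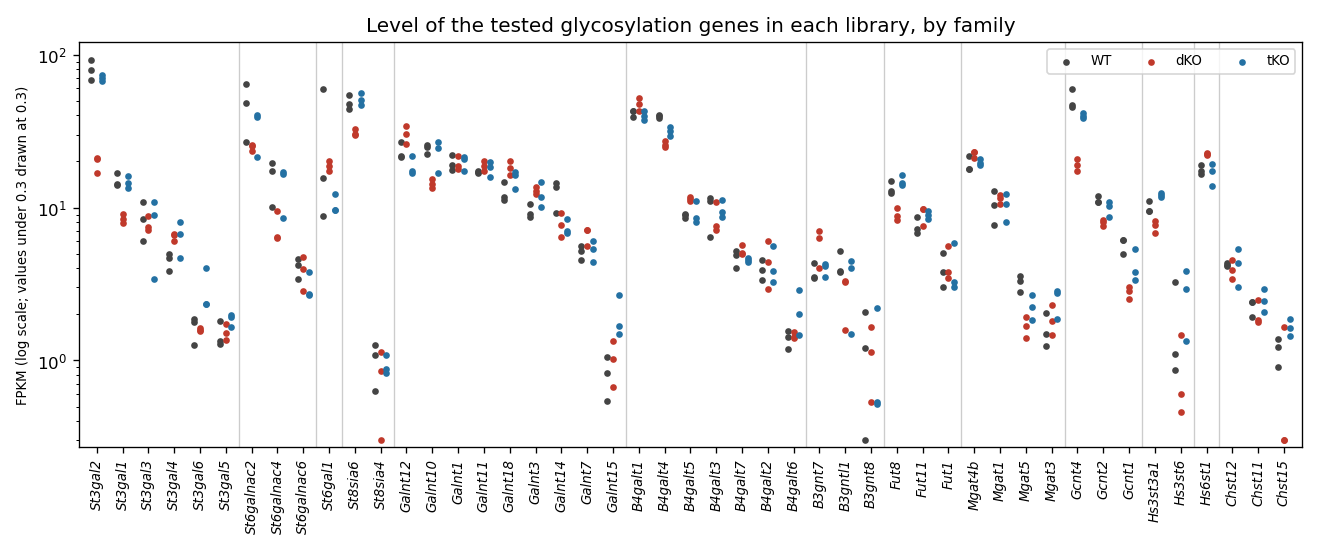
FPKM of the 47 tested genes in each library on a log axis, grouped by family, with values under 0.3 drawn at 0.3. St3gal2, Gcnt4, St8sia6, B4galt1 and B4galt4 are among the highest genes, and the dKO points of St3gal2 and Gcnt4 lie well below those of the same genes in WT and tKO.

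Of the galactosyltransferases that extend both kinds of chain, B4galt1 and B4galt4 were the highest. B4galt1, which makes most N-acetyllactosamine, measured 42.6, 39.2 and 42.5 FPKM in WT, 42.5, 52.2 and 47.6 in dKO and 42.5, 37.5 and 39.8 in tKO. The groups overlapped, and no comparison was called, with fold changes of 0.19 ± 0.10, -0.05 ± 0.10 and -0.24 ± 0.10 in dKO versus WT, tKO versus WT and tKO versus dKO. B4galt4, which can galactosylate sulfated N-acetylglucosamine, is on chromosome 16 (ENSMUSG00000022793, bases 38742264 to 38769049, plus strand). It measured 38.5, 39.4 and 40.4 FPKM in WT, 27.1, 25.5 and 25 in dKO and 33.8, 29.4 and 31.6 in tKO. The 3 groups did not overlap, and tKO lay between the others. The fall in dKO was -0.59 ± 0.08 (adjusted p = 0.0098) and kept its call whichever library was left out (adjusted p 0.012 to 0.049). The tKO libraries differed by -0.31 ± 0.08 from WT (adjusted p = 0.19) and by 0.28 ± 0.08 from dKO (adjusted p = 0.14).

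The 5 other B4galt genes were not called in any comparison. B4galt5, a synthase of lactosylceramide, stood at 8.82 ± 0.272 FPKM in WT against 11.4 ± 0.318 in dKO and 9.20 ± 1.55 in tKO, and its dKO libraries lay above all WT libraries (0.34 ± 0.12, adjusted p = 0.17). B4galt7, which adds the first galactose of the proteoglycan linkage region, stayed within 4.05 to 5.67 FPKM. Of the B3gnt genes, B3gnt7, which extends keratan sulfate and related chains, measured 4.37, 3.49 and 3.48 FPKM in WT, 4.05, 6.31 and 7.05 in dKO and 4.15, 3.53 and 4.25 in tKO. dKO 2 and dKO 3 were above all others and dKO 1 was not, and the fold change of 0.49 ± 0.18 was not called (adjusted p = 0.20). B3gntl1 measured 3.83, 3.76 and 5.23 FPKM in WT, 3.26, 1.59 and 3.31 in dKO and 4.00, 1.49 and 4.45 in tKO, and was not called either. The B3galt genes were close to 0: B3galt1 was listed at 0.480 FPKM in WT 2, and B3galt2 at 0.0478 in tKO 2 only. Of the B3galt1 value, which also has 0.864 and 1.22 FPKM in tKO 1 and tKO 2, 75.9% comes from an event that the files name B3galt1 but that lies on the opposite strand.

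On N-glycans, the enzyme of the core fucose changed and none of the 4 tested Mgat genes passed the test. Mgat2, of the same family, had no entry here. Fut8 is on chromosome 12 (ENSMUSG00000021065, bases 77238125 to 77476338, plus strand) and measured 12.8, 15.0 and 12.5 FPKM in WT, 10, 8.31 and 8.83 in dKO and 14.0, 14.5 and 16.3 in tKO. Its dKO libraries lay below the 6 others, and tKO overlapped with WT. The fall was -0.52 ± 0.11 (adjusted p = 0.040), and it kept its call when tKO 3 was left out but not when any other library was left out (adjusted p up to 0.15). It was also not called with no filter on low values (0.051), from last exons alone (0.053), in a fit of WT and dKO only (0.060) or with a replicate block (0.11). The rise in tKO over dKO was 0.67 ± 0.11 (adjusted p = 0.023) and was not called without dKO 2, dKO 3, tKO 2 or tKO 3 (up to 0.086), in a fit of dKO and tKO only (0.053) or with a replicate block (0.072). Fut11 measured 7.23, 8.68 and 6.86 FPKM in WT, 9.77, 7.53 and 9.75 in dKO and 9.47, 8.90 and 8.45 in tKO, with overlap between WT and both knockout groups. These are last-exon values. Its first-exon sums were 7.23, 7.10 and 6.86 FPKM in WT, below 8.50, 7.53 and 9.75 in dKO and 9.47, 8.90 and 9.33 in tKO. From first exons alone it was not called either.

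Mgat1, which begins the conversion to complex N-glycans, measured 7.65, 10.4 and 12.9 FPKM in WT, 12, 11.6 and 10.5 in dKO and 8.09, 12.2 and 10.6 in tKO. Mgat4b, a branching enzyme, measured 21.6, 17.8 and 17.9 FPKM in WT, 23.2, 22.9 and 21.1 in dKO and 19.4, 18.9 and 20.7 in tKO. Neither was called, and in each gene WT overlapped with both knockout groups. Mgat5 makes the branch that is often extended with poly-N-acetyllactosamine. It measured 3.29, 2.79 and 3.56 FPKM in WT, 1.68, 1.41 and 1.92 in dKO and 1.85, 2.69 and 2.25 in tKO. These are last-exon values, in which both knockout groups lay wholly below WT, at -0.66 ± 0.16 (adjusted p = 0.056) and -0.37 ± 0.16 (adjusted p = 0.36). With median-of-ratios scaling of the libraries, the dKO difference was called (-0.68, adjusted p = 0.040). Its first-exon sums were far lower, with means of 0.388 FPKM in WT against 0.478 in dKO and 0.503 in tKO, and did not show this order.

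Among the sulfotransferases, 0 of 6 tested genes were called in dKO versus WT, against 1.47% higher and 2.37% lower of all tested genes. At an unadjusted p under 0.05, 1 was higher and 1 lower, against 9.86% and 8.65% of all genes. In tKO versus dKO 1 rose (16.7%, against 1.23% of all genes) and 0 fell (against 0.861%). Hs3st3a1, a glucosaminyl sulfotransferase of heparan sulfate, is on chromosome 11 (ENSMUSG00000047759, bases 64435332 to 64522841, plus strand). It measured 11, 9.55 and 9.53 FPKM in WT, 8.18, 7.74 and 6.78 in dKO and 12.5, 12.1 and 11.8 in tKO. The 3 groups did not overlap, with tKO highest. The rise in tKO over dKO was 0.62 ± 0.10 (adjusted p = 0.023), and the differences from WT were -0.37 ± 0.10 in dKO (adjusted p = 0.10) and 0.25 ± 0.10 in tKO (adjusted p = 0.36). The rise lost its call without dKO 2, dKO 3, tKO 2 or tKO 3 (up to 0.076) and in a fit of dKO and tKO only (0.056). Hs3st6, of the same family, measured 1.10, 0.869 and 3.28 FPKM in WT, 0.605, 0.459 and 1.46 in dKO and 1.35, 3.83 and 2.94 in tKO, with overlap among all groups.

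Hs6st1 sulfates another position of heparan sulfate. It measured 19.0, 16.5 and 17.2 FPKM in WT, 22.6, 22.5 and 22.1 in dKO and 19.3, 13.8 and 17.4 in tKO. Its dKO libraries lay above the 6 others, opposite to Hs3st3a1, but neither difference was called (0.33 ± 0.12, adjusted p = 0.19, and -0.40 ± 0.12, adjusted p = 0.14). Chst12 and Chst11 sulfate chondroitin. Chst12 measured 4.14, 4.20 and 4.35 FPKM in WT, 3.40, 3.92 and 4.54 in dKO and 4.31, 5.37 and 3.04 in tKO. Chst11 measured 2.41, 2.42 and 1.92 FPKM in WT, 1.78, 1.83 and 2.49 in dKO and 2.06, 2.94 and 2.44 in tKO. Chst15, which makes a disulfated unit of chondroitin sulfate, measured 1.22, 0.912 and 1.39 FPKM in WT and 1.62, 1.88 and 1.44 in tKO, and was 1.65 in dKO 1 but listed at 0 in dKO 2 and dKO 3. These are first-exon values, and the last exon was listed at 0.806 FPKM in dKO 3 and at 0 in WT 2. It was not called, but without dKO 1 the first-exon values were in both dKO versus WT (-1.12, adjusted p = 0.045) and tKO versus dKO (1.40, adjusted p = 0.026).

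**Figure D4:**
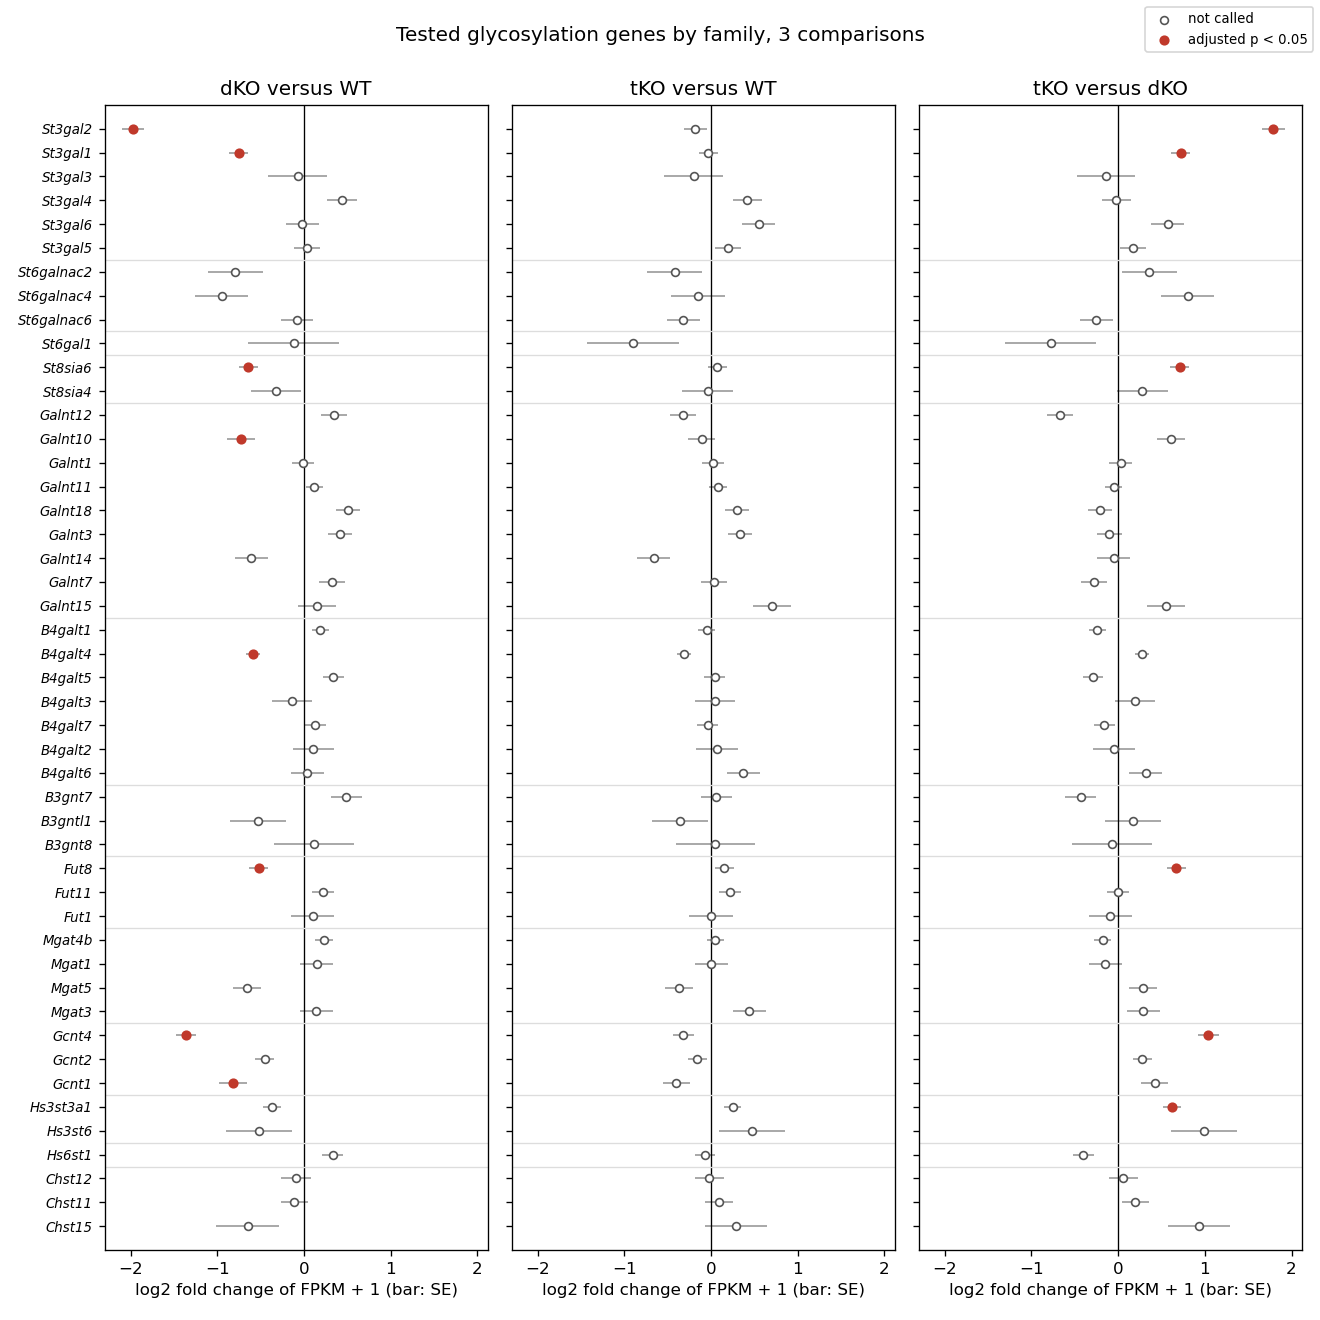
Log2 fold change of FPKM + 1 with its SE for the 47 tested genes in the 3 comparisons, by family, with filled points where the adjusted p is under 0.05. All 8 filled points in dKO versus WT are to the left of 0, all 6 in tKO versus dKO are to the right, and tKO versus WT has none.

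Over all 78 genes the FPKM summed to 666 ± 58.3 (SD, n = 3) in WT against 506 ± 3.75 in dKO and 615 ± 10.6 in tKO. The WT libraries summed to 620, 732 and 648 FPKM. The difference of 161 FPKM between WT and dKO is a net value, in which genes higher in dKO offset part of the falls. Of it, St3gal2 made up 37.5%, Gcnt4 19.6%, St6galnac2, whose fall was not called, 13.3% and St8sia6 11.1%. The groups did not overlap between dKO and WT for 14 genes in the lower direction and 7 in the higher, against 12.2% and 15.3% of all tested genes. Between tKO and dKO they did not overlap for 12 genes in the higher direction and 6 in the lower, against 12.2% and 9.97%, and between tKO and WT for 4 in each direction, against 11.1% higher and 7.69% lower.

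RefSeq promoter windows of GRCm38.p6, which run from 250 bases before a gene's start to 50 after it, were matched for 62 of the 78 genes, and none was found for St3gal2 or St3gal1. The windows of 4 genes that fell in dKO are printed because the deposited first exon of each starts within 24 bases of the RefSeq start. Gcnt4 is chr13:96924463-96924762, B4galt4 chr16:38742009-38742308 and Galnt10 chr11:57645192-57645491, on the plus strand, and Gcnt1 is chr19:17356618-17356917, on the minus strand. Capitals mark the only matches to the 4 motifs searched on both strands: CCGGAA of ETS factors, GGAATG of TEAD factors, TGANTCA of AP-1 and TGTTCT of the androgen receptor element.
Gcnt4: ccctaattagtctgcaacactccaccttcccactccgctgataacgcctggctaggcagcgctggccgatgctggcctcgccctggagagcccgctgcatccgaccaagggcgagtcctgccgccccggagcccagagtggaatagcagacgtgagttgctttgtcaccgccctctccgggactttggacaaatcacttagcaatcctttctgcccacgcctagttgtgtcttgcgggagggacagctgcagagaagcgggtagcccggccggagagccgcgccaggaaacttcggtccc
Gcnt1: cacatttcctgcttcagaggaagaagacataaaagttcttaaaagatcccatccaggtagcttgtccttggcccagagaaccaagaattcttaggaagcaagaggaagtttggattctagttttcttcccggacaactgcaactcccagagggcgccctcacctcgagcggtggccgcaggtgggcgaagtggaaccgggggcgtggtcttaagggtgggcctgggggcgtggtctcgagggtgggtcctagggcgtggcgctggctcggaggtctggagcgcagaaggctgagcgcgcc
B4galt4: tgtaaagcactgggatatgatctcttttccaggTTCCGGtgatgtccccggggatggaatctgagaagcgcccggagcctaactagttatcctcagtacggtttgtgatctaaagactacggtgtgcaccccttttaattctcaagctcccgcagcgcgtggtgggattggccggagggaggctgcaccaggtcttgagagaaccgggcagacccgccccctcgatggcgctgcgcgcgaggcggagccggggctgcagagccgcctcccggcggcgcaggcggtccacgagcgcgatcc
Galnt10: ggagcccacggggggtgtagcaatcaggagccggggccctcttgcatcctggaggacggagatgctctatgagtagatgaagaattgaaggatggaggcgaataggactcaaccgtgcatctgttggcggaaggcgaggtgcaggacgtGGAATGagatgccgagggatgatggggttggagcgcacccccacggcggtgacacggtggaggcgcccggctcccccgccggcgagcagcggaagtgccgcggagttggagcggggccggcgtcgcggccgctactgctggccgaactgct
The Gcnt4 and Gcnt1 windows hold none of the 4 motifs, that of B4galt4 holds the ETS motif on the minus strand, and that of Galnt10 holds the TEAD motif. The windows of Fut8, St8sia6 and Hs3st3a1 hold none. The RefSeq start of St8sia6 lies 544 bases from the start of the first exon in the files, so that its window falls within that exon. Of 32851 RefSeq windows of the same length, 14.9% hold the ETS motif, 14.7% the TEAD motif, 7.81% the AP-1 motif and 19.0% that of the androgen receptor. Of the 52 windows of tested glycosylation genes, 17.3%, 15.4%, 5.77% and 13.5% do. A match is a description of letters, and its absence says only that these letters are not in this window.

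The enzymes around these genes, in 6 lists of 123 symbols, were called about as often as all genes in dKO versus WT. The lists cover sugar and sulfate donor synthesis, Golgi donor transporters, other glycosyltransferases, N-glycan transfer and trimming, proteoglycan chain enzymes and glycan removal, and 106 of their genes were tested. In dKO versus WT 2 rose and 2 fell, 1.89% each against 1.47% and 2.37% of all genes, with a median fold change of -0.02. At an unadjusted p under 0.05, 7 were higher (6.6%, against 9.86% of all genes) and 14 lower (13.2%, against 8.65%). Man1a (-1.01 ± 0.23, adjusted p = 0.051) and B4galnt1 (-0.50 ± 0.12, adjusted p = 0.052) narrowly missed the threshold in dKO versus WT. In tKO versus WT none was called, and at that unadjusted level 3 were higher (2.83%, against 8.17%) and 7 lower (6.6%, against 5.06%). In tKO versus dKO 1 rose (0.943%, against 1.23%) and 3 fell (2.83%, against 0.861%). Without the adjustment, 6 were higher (5.66%, against 9.42%) and 11 lower (10.4%, against 7.3%). None of the 12 tested Golgi donor transporters and none of the 22 other glycosyltransferases was called in any comparison. However, at an unadjusted p under 0.05, 4 of the former and 3 of the latter were lower in dKO than in WT, against 8.65% of all genes. In the higher direction 1 of the former and 0 of the latter were, against 9.86%.

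Nans, the synthase that makes sialic acid, measured 87.5, 83.0 and 89.0 FPKM in WT, 56.6, 63.3 and 45.6 in dKO and 86.8, 68.0 and 79.3 in tKO. It fell in dKO by 0.65 ± 0.14 on the log2 scale (adjusted p = 0.035), and its difference in tKO over dKO, 0.50 ± 0.14, was not called (adjusted p = 0.11). Stt3b, a catalytic subunit of the oligosaccharyltransferase, measured 66.2, 63.4 and 62.9 FPKM in WT, 47.9, 48.4 and 48.5 in dKO and 68.0, 69.9 and 59.0 in tKO. It fell in dKO (-0.40 ± 0.09, adjusted p = 0.041) and rose in tKO over dKO (0.43 ± 0.09, adjusted p = 0.046). In both genes the dKO libraries were the 3 lowest.

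Chpf, Gusb and Glce, 3 enzymes of glycosaminoglycan chains, were highest in dKO. The chondroitin polymerizing factor Chpf measured 19.1, 12.7 and 14.0 FPKM in WT, 26.3, 27.7 and 28.7 in dKO and 17.8, 12.6 and 11.8 in tKO. It rose in dKO (0.83 ± 0.18, adjusted p = 0.040) and fell in tKO versus dKO (-0.94 ± 0.18, adjusted p = 0.036). Gusb, the lysosomal enzyme that removes glucuronic acid from such chains, measured 13.1, 10.3 and 10.9 FPKM in WT, 16.7, 16.8 and 16.9 in dKO and 9.27, 10.3 and 10.6 in tKO. It rose in dKO (0.53 ± 0.11, adjusted p = 0.034) and fell in tKO versus dKO (-0.69 ± 0.11, adjusted p = 0.017). Glce, which epimerizes glucuronic acid in heparan sulfate, measured 16.6, 11.8 and 9.02 FPKM in WT, 17.7, 19.4 and 19.2 in dKO and 7.82, 8.36 and 7.70 in tKO. It fell in tKO versus dKO (-1.14 ± 0.18, adjusted p = 0.017), and its difference between dKO and WT was not called (0.59 ± 0.18, adjusted p = 0.12).

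Markers of the tissue's cell types moved between the same groups. The 8 markers of the initial segment and its principal cells summed to 23905 to 24868 FPKM in WT against 14964 to 16367 in dKO and 15346 to 19243 in tKO. Most of that sum is Gpx5, which was called in no comparison and stood at 16391 to 17615, 13062 to 14679 and 10682 to 13883 FPKM, and the 7 others summed to 6290 to 8477 in WT against 1594 to 1902 in dKO and 4665 to 5628 in tKO. Of the 8, 5 fell in dKO and 5 rose in tKO over dKO, namely Rnase10, Cst8, Lcn8, Etv4 and Etv5. All 4 markers of dividing cells rose in dKO, from a sum of 21.3 to 25.8 FPKM to 43.1 to 62.5, and they summed to 32.4 to 51.2 in tKO. The 3 narrow and clear cell markers with a value summed to 46.4 to 53.1 FPKM in WT against 23.3 to 27.3 in dKO and 33.7 to 42.8 in tKO, where Car2 alone was called. The 4 endothelial markers summed to 28 to 29.7, 21.2 to 25.3 and 28.6 to 34.4 FPKM, and 1 of them was called in each comparison with dKO. Smooth muscle markers summed to 693 to 1101, 548 to 646 and 618 to 936 FPKM, with 1 of 4 lower in dKO and higher in tKO over dKO by the test, and fibroblast markers to 521 to 536, 410 to 589 and 499 to 874, with 1 of 4 called lower in dKO. Basal cell markers summed to 98.9 to 109, 84.6 to 89.6 and 46.9 to 82.8 FPKM, and 3 macrophage markers to 9.27 to 12.5, 9.97 to 14.6 and 8.07 to 12. The 3 markers of ciliated efferent duct cells summed to at most 27.3 FPKM in WT and dKO and to 23.8, 58.9 and 42.3 in tKO 1, 2 and 3. Markers of lymphocytes (Cd3e) and germ cells (Ddx4) were at most 0.414 and 7.29 FPKM, the latter in tKO 2. No value was found for Foxi1, Cx3cr1, Cd79a, Prm1, Prm2 or Tnp1. The part of these cell types in the differences of the glycosylation genes was not tested.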

How the data were processed

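Poly(A)-selected RNA from 9 libraries was deposited by the authors as FPKM per transcript event, per the file headers, with events at 0 not listed. Of software, the submitters' processing notes list only DESeq and bcl2fastq 2.17.1.14, with no role, and for the aligner and the build nothing is stated (not given in the sources used here). Event positions fitted GENCODE M21 of GRCm38, whose splice sites matched 81.1% of first-exon and 82.3% of last-exon events. The rest went to the gene named in the files when it lay within 5000 bases, or else to the gene whose annotated exon they overlap. Per library at least 94.9% of first-exon and 97.8% of last-exon FPKM was placed. Events named for a gene could lie on its other strand, which was so for 4 of the 78 genes (B3galt1, Fut2, Fut4 and St3gal3, at 0.661% of the value in St3gal3, the only one tested), and reads of paralogs could not be separated.

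The 9 libraries entered a single limma model (version 3.58.1, R 4.3.3; trended variance, 6 residual degrees of freedom, no batch term) of log2(FPKM + 1), after a filter of 1 FPKM or more in 3 or more libraries. The pseudocount makes fold changes of low genes smaller than their ratios. First-exon shares were compared by exact permutation tests, and the fit was tested on simulated data. Alternatives were pseudocounts of 0.1 and 5, no filter, a filter of 5 FPKM, median-of-ratios scaling, first or last exons only, events placed by the files' gene names only, fits of 2 groups, a replicate block, and leaving out each library. Values in every library are given for genes called in any comparison, the 10 with the smallest p in each, and the 2 highest of each family. Symbols alone decided which genes belong to the set. The set itself and the lists were chosen with earlier results of these data known. All else was done in Python 3.11.15 (SciPy 1.17.1, numpy 2.4.6, pandas 2.3.3) and drawn with matplotlib 3.10.9.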

Additional observations from a re-analysis of the deposited data

How the results depend on the processing

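Of the 8 falls in dKO versus WT, those of St3gal2, Gcnt4, B4galt4 and St3gal1 remained called whichever of the 9 libraries was left out, and of the 6 rises in tKO versus dKO, those of St3gal2 and Gcnt4 did. No called gene changed direction under any alternative. Leaving out each library, 4 to 9 glycosylation genes were called in dKO versus WT, 0 in tKO versus WT and 2 to 7 in tKO versus dKO. The counts were 4 without WT 2, WT 3, dKO 2 or dKO 3 and 5 without dKO 1 in the first, and 2 without tKO 2 and 3 without dKO 2 or dKO 3 in the last. Over all genes the count in dKO versus WT was 463, and 105 to 454 with a library left out, of which 105 to 190 were without WT 2, WT 3 or a dKO library. In tKO versus WT it was 17, against 6 to 151: 6 to 9 without a WT library, 11 without dKO 1, 8 without tKO 2 and 151 without tKO 1. In tKO versus dKO it was 252, against 95 to 320, of which 95 to 146 were without a dKO library, tKO 2 or tKO 3. From first exons alone 3 glycosylation genes were called in tKO versus dKO. With a replicate block the counts over all genes were 235, 3 and 145, and of the glycosylation genes 6, 0 and 4. Libraries with the same number deviated together no more than others (r -0.101 to 0.01 over 9 pairs, against -0.08 to 0.113 over 18). No sign of pairing by number was thus seen, but a correlation over all genes cannot exclude it. In tKO versus WT 29 genes were called with no filter, 30 with the files' gene names only and 8 in the fit of 2 groups, which also gave 161 in tKO versus dKO. The causes were not tested. With no read counts deposited, how far depth limits the calls at low levels is unknown.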

Other observations

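Hs6st2, a further sulfotransferase of heparan sulfate, was below the filter. By its last exon it was listed in the 3 dKO libraries alone, at 0.512, 0.450 and 0.295 FPKM, and at 0 in the 6 others. Its first exon was listed at 0.512, 0 and 0.295 FPKM in dKO. The fit with no filter on low values admits Hs6st2 through its dKO values alone. With 0 in the 6 others its spread is understated there, so p-values from that fit are not given. Hs6st2 was singled out after its values were seen. For its paralog Hs6st1 the dKO libraries were also the highest 3 of the 9, but no difference was called.

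Some other low genes had no entry in the dKO libraries. By its last exon, Galnt6 stood at 0.500, 0 and 0.734 FPKM in WT, at 0 in all dKO libraries and at 0.897, 3.27 and 1.84 in tKO. Its first exons, and that of Galntl5, were listed at 0 in every WT and dKO library. Galntl6 and Galntl5 were also listed at 0 in the dKO libraries, and each had its highest value in tKO 2, at 1.04 and 0.685 FPKM. That library also had the highest sums of ciliated duct and germ cell markers, 58.9 and 7.29 FPKM, and listed the most events, 101601. tKO 1 and tKO 3 listed 95374 and 95915 events, against 89938 to 93512 in WT and 90121 to 91982 in dKO. The part of these cell types and of the number of listed events in these values was not tested. By its last exon, St8sia2, a polysialyltransferase, was listed at 0 in all 3 WT libraries, at 0, 0.615 and 0.610 FPKM in dKO and at 0.476, 1.05 and 0.715 in tKO. Its first exon was at 0.437, 0 and 0.61 FPKM in dKO and at 0 in WT.

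B4galt4 has an inner exon with a pair of alternative ends on chromosome 16. The form ending at base 38763129 made up 8.05%, 9.32% and 11.1% of the pair in WT, 11.7%, 6.82% and 5.82% in dKO and 13%, 12.1% and 13.2% in tKO. The tKO libraries had the 3 highest shares, and dKO and WT overlapped.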
